A study of Mus musculus with 9 samples.

Results

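The genes described here are 9 genes that mark the resident macrophages of connective tissue: Folr2, F13a1, Mrc1, Cd163, Lyve1, Retnla, Clec10a, Ms4a7 and Pf4. They were taken by symbol from a named list that sets no threshold on their values, although it was chosen with earlier results of these data known. All 9 were found among the 22609 genes of the count files. All 9 also passed the filter on low counts and are among the 16091 genes tested.

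Resident macrophages live in a tissue for long periods, take up debris and foreign material, and in skin and nerve many of them sit beside blood vessels. They carry receptors that bind sugars, hyaluronan, folate and haemoglobin, and they release clotting factors and chemokines. The macrophages within the spinal cord are mainly microglia, which share the general macrophage genes but express most of these genes weakly. Macrophages of the meninges and of vessels around the cord do express several of them.

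RNA was sequenced from hind paw skin punches, from dorsal root ganglia (DRG) of lumbar levels 3 to 5, and from lumbar spinal cord, with 3 libraries per tissue. All 9 libraries came from male C57 mice of 8 to 12 weeks, and the DRG was the nerve tissue sampled, with no length of nerve itself. Every mouse had received paclitaxel, a chemotherapy drug that stabilises microtubules and can cause painful neuropathy, in 2 intraperitoneal injections of 2 mg/kg. Each also had a blocker of the lymphotoxin-beta receptor (the LTβR antagonist), 15 µg in the hind paw and 15 µg intrathecally, and tissue was taken 6 days after the last paclitaxel injection. The sample titles place the antagonist at days 1 and 4, whereas the series text has it between both paclitaxel injections and again 1 day later. Libraries of IgG controls are not analysed here, so neither treatment was tested for an effect, and each comparison is between tissues that share both treatments. The labels do not say whether the libraries of a tissue came from separate mice. The p-values therefore measure the spread between these libraries, which may be partly technical.

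Between 15537545 and 23229724 reads per library were assigned to genes. Levels are given in CPM (reads of a gene scaled to a common library total) on library sizes scaled by the trimmed mean of M-values (TMM), and a floor of 3 reads stands at 0.134 to 0.185 CPM. Tissue identity was plain in the marker genes: summed keratinocyte markers reached 34686 CPM or more in each paw library and 30.1 CPM or less in each other library. Sensory neuron markers summed to at least 4763 CPM in each DRG library, against at most 106.8 CPM elsewhere. The paw punches also held skeletal muscle, with 15546 to 21275 CPM over 8 muscle genes.

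The stretches of DNA just before the start sites are shown for 5 of the genes, the closest pairs by pattern described further on (Mrc1 with Cd163, and F13a1 with Pf4) and Retnla, which had the widest differences against spinal cord. Each stretch is the 250 bases before an annotated start, 5′ to 3′ on the gene's own strand, from RefSeq on GRCm38.p6. Capitals mark matches, on either strand, to GAGGAA (the core that the myeloid factor PU.1 binds), TGCTGA (a partial site of MAF factors), TGANTCA (AP-1) and the STAT6 site (TTC and GAA with any 4 bases between).
Mrc1, chr2:14229164-14229413, plus strand: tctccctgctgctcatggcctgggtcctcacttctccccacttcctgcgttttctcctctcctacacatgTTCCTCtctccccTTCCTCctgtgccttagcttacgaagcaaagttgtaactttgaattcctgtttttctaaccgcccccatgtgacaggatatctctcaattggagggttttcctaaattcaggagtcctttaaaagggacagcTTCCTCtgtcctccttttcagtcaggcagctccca
Cd163, chr6:124304401-124304650, plus strand: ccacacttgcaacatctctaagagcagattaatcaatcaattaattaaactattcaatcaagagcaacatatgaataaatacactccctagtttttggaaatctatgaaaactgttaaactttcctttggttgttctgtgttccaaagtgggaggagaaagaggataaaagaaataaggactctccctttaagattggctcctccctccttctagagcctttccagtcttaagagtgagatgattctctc
F13a1, chr13:37050245-37050494, minus strand, the upstream one of 2 annotated starts: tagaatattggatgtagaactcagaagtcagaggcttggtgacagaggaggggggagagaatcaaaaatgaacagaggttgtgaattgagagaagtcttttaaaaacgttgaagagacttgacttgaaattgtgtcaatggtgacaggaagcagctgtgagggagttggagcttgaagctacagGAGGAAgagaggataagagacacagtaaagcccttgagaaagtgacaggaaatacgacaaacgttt
Pf4, chr5:90772185-90772434, plus strand: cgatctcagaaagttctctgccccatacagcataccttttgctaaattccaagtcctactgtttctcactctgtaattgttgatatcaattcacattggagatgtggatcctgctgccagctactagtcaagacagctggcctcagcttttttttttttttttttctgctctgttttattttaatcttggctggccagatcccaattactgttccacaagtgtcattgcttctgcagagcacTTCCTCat
Retnla, chr16:48842359-48842608, plus strand: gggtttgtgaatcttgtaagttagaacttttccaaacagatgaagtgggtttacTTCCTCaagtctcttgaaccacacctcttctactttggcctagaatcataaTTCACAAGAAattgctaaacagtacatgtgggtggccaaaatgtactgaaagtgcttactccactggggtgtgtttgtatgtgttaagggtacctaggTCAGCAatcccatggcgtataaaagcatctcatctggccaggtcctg
The Mrc1 stretch holds GAGGAA 3 times, beginning 180, 167 and 35 bases before the start, each on the opposite strand as TTCCTC. F13a1 holds it once at 66 bases before the upstream start, and Pf4 once at 8 bases before its start. The stretch before the other F13a1 start, not shown, holds none of the 4 motifs, and neither does the Cd163 stretch. Retnla holds GAGGAA at 196 bases, the STAT6 letters at 145 bases and the MAF letters at 47 bases before its start. No match overlapped another.

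Of the 9 genes, 7 had such a stretch in the table, with 10 stretches in all. GAGGAA occurred in 4 of these 10 stretches, from 4 genes, and in 23.4% of all 32526 stretches of the same length. TGCTGA occurred in 3 of the 10 (from Folr2 and Retnla) and in 16.1% of all stretches. The AP-1 letters occurred in 2 of the 10 (from Folr2 and Ms4a7) and in 6.73% of all stretches. The STAT6 letters occurred in 2 of the 10 (from Ms4a7 and Retnla) and in 5.89% of all stretches. A match is a description of letters and says nothing of whether a factor binds there.

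Every one of the 9 genes was most abundant in the paw. In the paw libraries their levels ran from 2.23 ± 0.385 CPM for Ms4a7 to 102 ± 6.72 CPM for F13a1 (SD, n = 3 each). Their summed level was 290.1 ± 22.3 CPM in paw, 46.8 ± 11.1 CPM in DRG and 23.3 ± 8.28 in spinal cord (SD, n = 3 each). In bulk tissue, fewer cells of a type and less RNA per cell cannot be told apart.

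**Figure D1:**
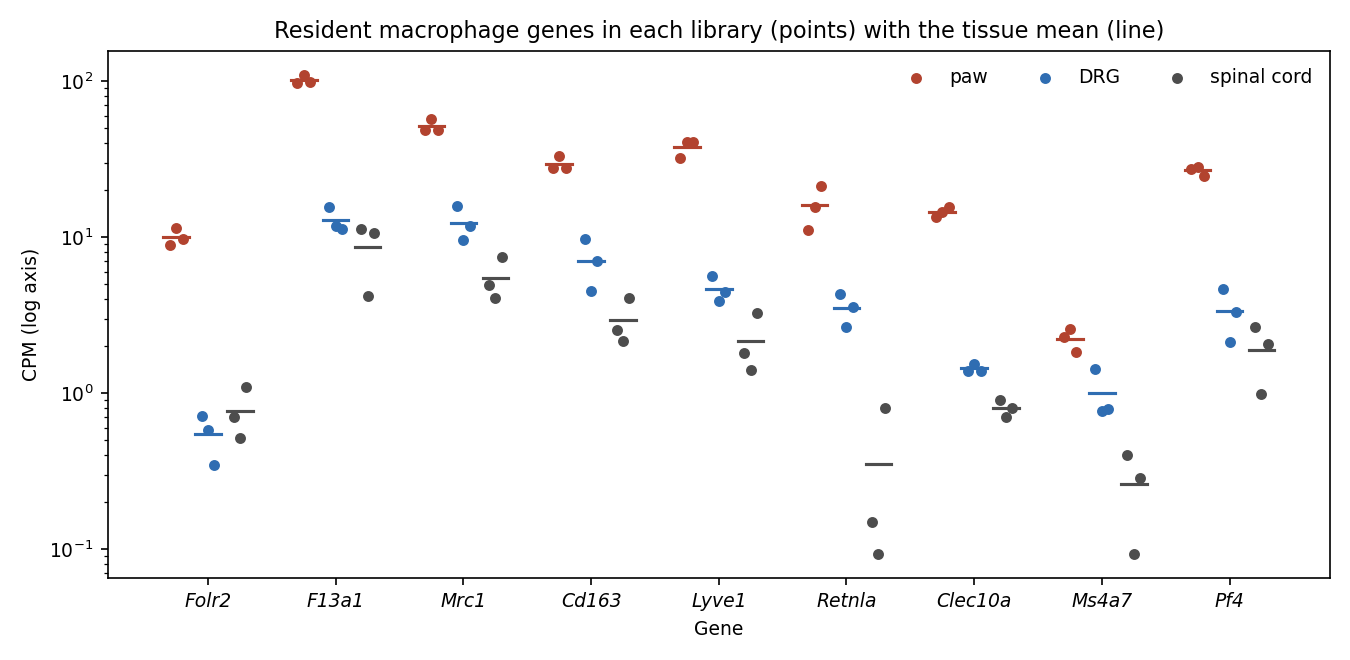
CPM of the 9 resident macrophage genes (log axis) in each library, with 3 points per tissue and a line at the tissue mean. For every gene the 3 paw points lie above all DRG and spinal cord points, while DRG and spinal cord points overlap for Folr2 and Pf4.

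Paw skin was compared with DRG, with spinal cord, and DRG with spinal cord, in 1 edgeR quasi-likelihood fit over all 9 libraries, and p-values were adjusted by the Benjamini-Hochberg method over all genes tested. Against DRG, all 9 genes were called higher in paw. The background over all tested genes was 80.5% called in either direction and 39.7% called higher. Of the 9 genes, 9 were at least 2-fold higher, against a background of 25.5%, and 8 were at least 4-fold higher, against 14.5%. Their median log2 fold change was 2.98, beside -0.02 over all genes tested. Against spinal cord, all 9 genes were again called higher in paw. The background of all tested genes was 81.6% called, 39.9% higher and 41.7% lower in paw. All 9 were at least 4-fold higher, against 15.1% of all genes, and their median log2 fold change was 3.72, beside -0.03 over all genes. The 2 comparisons share the paw libraries. For all 9 genes every paw library lay above every DRG library, as for 41.2% of tested genes, and above every spinal cord library, as for 41.0%.

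DRG and spinal cord were closer to each other. Of the 9 genes, 6 were called higher in DRG and 0 lower, while 59.6% of all tested genes were called, 29.0% higher and 30.6% lower. The remaining 3, Folr2, F13a1 and Pf4, did not pass the test. At least 2-fold higher in DRG were 5 genes, against 14.1% of all genes, and 1 of them, Retnla, was at least 4-fold higher, against 5.97%. For the 9 genes the median log2 fold change was 1.14, beside -0.02 over all genes. In 7 genes every DRG library lay above every spinal cord library, as for 30.9% of tested genes, with Folr2 and Pf4 as the exceptions.

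**Figure D2:**
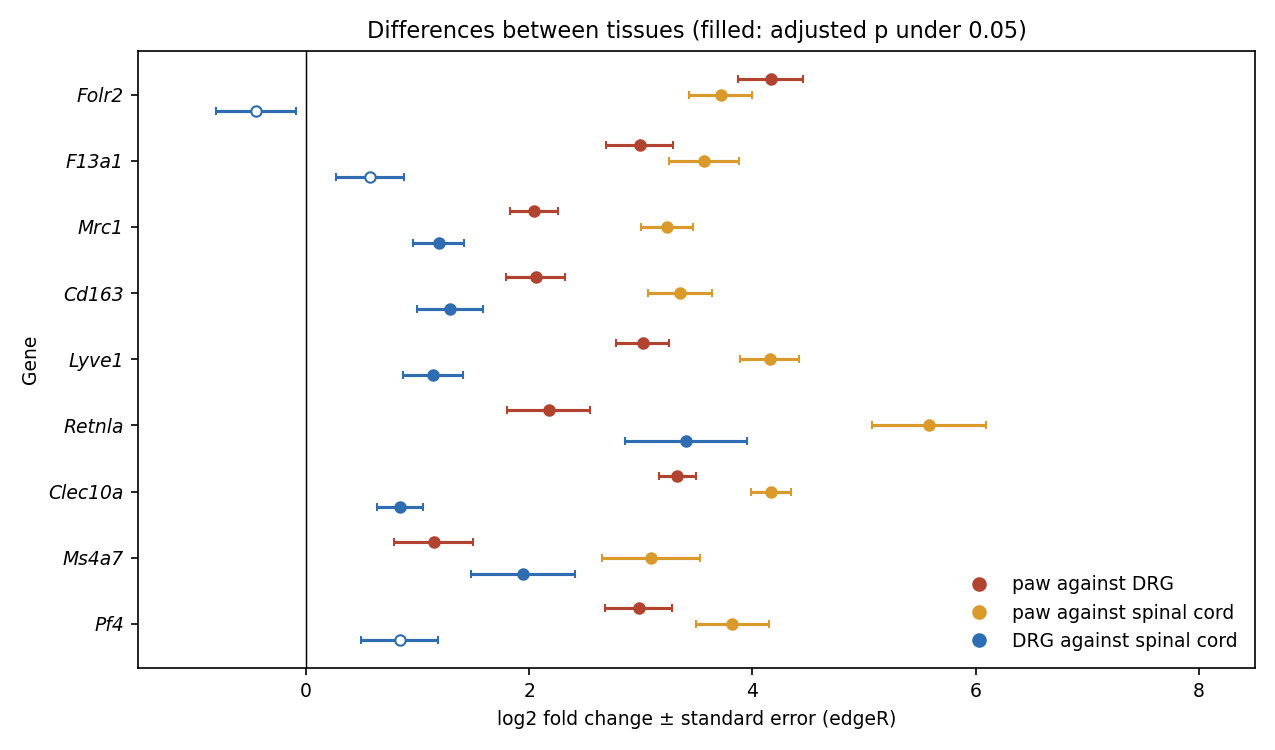
Log2 fold changes (x axis) with standard errors for the 9 genes in the 3 comparisons between tissues, from edgeR, where filled points have an adjusted p under 0.05. All paw comparisons lie above 0, from 1.15 for Ms4a7 against DRG to 5.58 for Retnla against spinal cord, and the 3 open points are Folr2, F13a1 and Pf4 in DRG against spinal cord.

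Among the uptake receptors, Mrc1 encodes the mannose receptor CD206, which binds sugars on microbes and glycoproteins. It had 48.2, 57.0 and 48.6 CPM in the paw libraries, 15.9, 9.60 and 11.7 CPM in the DRG libraries, and 4.95, 4.06 and 7.40 CPM in the spinal cord libraries. The tissues did not overlap, and DRG lay between the others. Paw exceeded DRG by 2.05 ± 0.21 on the log2 scale (4.13-fold, edgeR adjusted p = 4.51e-06) and spinal cord by 3.24 ± 0.23 (9.44-fold, adjusted p = 1.6e-07), where ± is the standard error here and below. DRG exceeded spinal cord by 1.19 ± 0.23 (2.28-fold, edgeR adjusted p = 0.00106).

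Cd163 encodes the receptor that takes up haemoglobin bound to haptoglobin. Its levels were 27.8, 33.3 and 27.7 CPM in paw, 9.65, 4.54 and 7.03 CPM in DRG, and 2.55, 2.15 and 4.08 CPM in spinal cord. Again no library of a tissue reached into the range of another, although DRG 2 at 4.54 CPM stood close to spinal cord 3 at 4.08 CPM. The log2 differences were 2.06 ± 0.26 for paw over DRG (4.17-fold, edgeR adjusted p = 2.44e-05), 3.35 ± 0.29 for paw over spinal cord (10.2-fold, adjusted p = 8.6e-07) and 1.29 ± 0.29 for DRG over spinal cord (2.45-fold, adjusted p = 0.00293). In each comparison the Cd163 and Mrc1 differences lay less than 1 standard error apart.

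Lyve1 encodes a hyaluronan receptor that is found on perivascular macrophages and also on lymphatic endothelium. The paw libraries held 32.1, 40.7 and 40.8 CPM, the DRG libraries 5.63, 3.91 and 4.46 CPM, and the spinal cord libraries 1.80, 1.40 and 3.27 CPM. All 3 tissues were separate. Paw was 8.09-fold above DRG (log2 3.02 ± 0.24, edgeR adjusted p = 3.01e-07) and 17.8-fold above spinal cord (4.15 ± 0.26, adjusted p = 3.9e-08), and DRG was 2.20-fold above spinal cord (1.14 ± 0.27, adjusted p = 0.00383). Because Lyve1 is shared with lymphatic vessels, the lymphatic markers are given beside it. Mmrn1, a matrix protein of lymphatic endothelium, averaged 16.7 ± 2.34 CPM in paw, 0.598 ± 0.190 CPM in DRG and 0.219 ± 0.331 in spinal cord (SD, n = 3 each). Prox1, the factor that sets lymphatic identity, averaged 3.18 CPM in paw, 0.0165 CPM in DRG and 6.17 in spinal cord, and Ccl21a had 0 reads in all 9 libraries. The 9 lymphatic genes summed to 152 to 174 CPM in paw, 201 to 326 CPM in DRG and 117 to 170 in spinal cord. The most expressed of them were Reln, Tbx1 and Pdpn, and the sum ran differently from Mmrn1, which was highest in paw. Whether these genes were read from lymphatic vessels in each tissue was not tested. The part of lymphatic vessels in the Lyve1 difference was not tested either.

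Folr2 encodes folate receptor beta, a marker of tissue-resident macrophages in several organs. In paw it had 8.86, 11.4 and 9.72 CPM. It had 0.715, 0.579 and 0.347 CPM in DRG and 0.700, 0.513 and 1.09 in spinal cord, on 7 to 19 reads per library. All paw libraries stood far above the rest, and DRG and spinal cord overlapped. Paw over DRG was 17.9-fold (log2 4.17 ± 0.29, edgeR adjusted p = 8.35e-08), the widest paw against DRG difference of the 9 genes. Paw over spinal cord was 13.1-fold (3.72 ± 0.28, adjusted p = 1.65e-07). DRG against spinal cord gave -0.45 ± 0.36 (edgeR adjusted p = 0.304), the sole negative value of the 9. The GENCODE annotation on GRCm38 places an antisense transcript, Gm10602, over Folr2 exons, and 56.7% of the 50-base windows of Folr2 also occur in it. Gm10602 has no row of its own in the count files.

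Clec10a encodes a lectin, MGL1, that binds galactose-type sugars. Relative to its mean it had the smallest spread of the 9 genes within DRG and within spinal cord, at 13.4, 14.5 and 15.5 CPM in paw, 1.39, 1.54 and 1.39 CPM in DRG and 0.900, 0.700 and 0.804 in spinal cord. The tissues did not overlap. Log2 differences were 3.33 ± 0.17 for paw over DRG (10.03-fold, edgeR adjusted p = 3.8e-09), 4.17 ± 0.18 for paw over spinal cord (17.98-fold, adjusted p = 9.81e-10) and 0.84 ± 0.20 for DRG over spinal cord (1.79-fold, adjusted p = 0.00401). DRG against spinal cord did not pass when DRG 1 and DRG 2 were both left out (0.79, edgeR adjusted p = 0.0606), a fit with 1 DRG library that is assumed to vary like the other tissues.

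Mgl2, the paralog of Clec10a, encodes the related lectin MGL2 and shares 10.6% of the 50-base windows of Clec10a, so reads from that stretch cannot be assigned to one of them. Its level was 8.94 ± 1.16 CPM in paw, 8.20 ± 1.23 CPM in DRG and 1.58 ± 0.743 in spinal cord (SD, n = 3 each). The difference between paw and DRG did not pass the test for Mgl2 (log2 0.12 ± 0.24, edgeR adjusted p = 0.643), whereas both exceeded spinal cord, by 2.52 ± 0.28 (adjusted p = 4.27e-06) and 2.40 ± 0.27 (adjusted p = 1.68e-05). For every 100 Mgl2 reads there were 176, 149.7 and 163 Clec10a reads in paw, 14.5, 19.6 and 19.3 in DRG, and 66.7, 71.4 and 33.3 in spinal cord. The log2 ratio differed by 3.21 between paw and DRG, by 1.59 between paw and spinal cord and by -1.62 between DRG and spinal cord. Each difference had p = 0.1 in an exact two-sided permutation test, the smallest p that 3 against 3 libraries allow.

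Ms4a7 encodes a macrophage membrane protein of the CD20 family and was the lowest of the 9. It had 2.27, 2.59 and 1.83 CPM in paw, 1.43, 0.772 and 0.792 CPM in DRG, and 0.400, 0.0933 and 0.287 CPM in spinal cord, the last on 8, 2 and 5 reads. The tissues did not overlap. Paw exceeded DRG by 1.15 ± 0.36 on the log2 scale (2.21-fold, edgeR adjusted p = 0.0109), the narrowest of the 9 differences. Paw exceeded spinal cord by 3.09 ± 0.44 (8.51-fold, adjusted p = 4.14e-05) and DRG exceeded spinal cord by 1.94 ± 0.47 (3.85-fold, adjusted p = 0.00375). Without DRG 1 and DRG 2 the DRG over spinal cord difference was 1.61 and did not pass (edgeR adjusted p = 0.0659), with the spread again taken from the other tissues.

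Of the secreted products, F13a1 encodes the A subunit of clotting factor XIII, a transglutaminase that cross-links fibrin. It was the most read of the 9 genes in paw, with 97.2, 109.7 and 99.1 CPM, against 15.5, 11.7 and 11.2 CPM in DRG and 11.2, 4.20 and 10.6 in spinal cord. Paw stood alone. The lowest DRG library and the highest spinal cord library both rounded to 11.2 CPM, the DRG one being slightly higher, and spinal cord 2 was the lowest of all. Log2 differences were 2.99 ± 0.30 for paw over DRG (7.95-fold, edgeR adjusted p = 9.39e-06) and 3.57 ± 0.31 for paw over spinal cord (11.8-fold, adjusted p = 3.19e-06). DRG against spinal cord gave 0.58 ± 0.30 (1.49-fold, edgeR adjusted p = 0.133) and passed in 1 alternative, with spinal cord 1 and 3 left out (1.63, adjusted p = 0.000431). That fit holds 1 spinal cord library, the one lowest for all 9 genes, and assumes that it varies like the other tissues. An antisense gene, Gm30489, overlaps F13a1 exons on GRCm38 and has no row in the count files.

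Pf4 encodes platelet factor 4 (CXCL4), a chemokine stored in platelets and also made by resident macrophages. Its levels were 27.4, 28.1 and 24.6 CPM in paw, 4.65, 2.12 and 3.32 CPM in DRG, and 2.65, 0.980 and 2.07 CPM in spinal cord. DRG 2 fell below spinal cord 1, so these tissues overlapped. Paw exceeded DRG 7.90-fold (log2 2.98 ± 0.30, edgeR adjusted p = 3.68e-06) and spinal cord 14.1-fold (3.82 ± 0.33, adjusted p = 7.95e-07). The DRG over spinal cord difference, 0.84 ± 0.34 (1.79-fold), had an edgeR adjusted p of 0.0557. It passed when DRG 2 was left out (1.09, adjusted p = 0.015) and when spinal cord 1 was (1.18, adjusted p = 0.0191).

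Since platelets also store Pf4, platelet genes are given beside it. Ppbp, another chemokine of platelets, averaged 0.302 ± 0.162 CPM in paw and 0.827 ± 0.298 CPM in DRG (SD, n = 3 each), and its spinal cord libraries had 8.40, 0.280 and 0.287 CPM. In spinal cord 1, the library with the most Pf4 of its tissue, Tubb1 was also at 1.55 CPM, against 0.0467 and 0.0574 CPM in the others, and Gp9 at 0.950 CPM, against 0.0933 and 0.230 CPM. The 12 platelet genes summed to 141 to 201 CPM in paw, 39.8 to 40.7 CPM in DRG and 31.6 to 53.9 in spinal cord, with 1 gene at 0 reads in paw and 1 in DRG. Most of the paw sum was Nbeal2, a granule gene expressed well beyond platelets, at 146 ± 31.6 CPM (SD, n = 3). F13a1 was also highest of its tissue in spinal cord 1, at 226 reads per 100 Mrc1 reads, against 103 and 143 in spinal cord 2 and 3. Whether platelets contribute to the Pf4 or F13a1 levels was not tested.

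Retnla encodes RELM-alpha, a small secreted protein induced by interleukin-4 and interleukin-13. Relative to its mean it varied most of the 9 genes within paw and within spinal cord, with 11.02, 15.6 and 21.3 CPM in paw, 4.33, 2.65 and 3.57 CPM in DRG, and 0.150, 0.0933 and 0.804 CPM in spinal cord, the last on 3, 2 and 14 reads. The tissues did not overlap, and spinal cord 1 and 2 lay at or below the floor. Paw exceeded DRG 4.52-fold (log2 2.18 ± 0.37, edgeR adjusted p = 0.000285). Paw exceeded spinal cord by 5.58 ± 0.51 (adjusted p = 1.97e-06) and DRG exceeded spinal cord by 3.40 ± 0.55 (adjusted p = 0.000358), the widest of the 9 genes in both comparisons. Both sizes depended on spinal cord 3, and without it they were 7.01 (edgeR adjusted p = 2.28e-07) and 4.81 (adjusted p = 2.94e-05). The inducing cytokines were barely read, as Il4 had 1 read over each tissue's libraries and Il13 had 1 read in paw and 0 elsewhere.

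Levels of different genes can be set side by side only per length, here as mean CPM per kilobase of exon (GENCODE on GRCm38). In paw the order was Pf4 at 38.2, Retnla at 26.6, F13a1 at 25.5, Lyve1 at 13.1, Mrc1 at 9.54, Folr2 at 7.57, Cd163 at 6.59, Clec10a at 5.80 and Ms4a7 at 1.30 CPM per kb. Neighbours in that order whose libraries overlapped were Pf4 and Retnla, Retnla and F13a1, Folr2 and Cd163, and Cd163 and Clec10a. In DRG, Retnla led at 5.87 CPM per kb, followed by Pf4 at 4.80 and F13a1 at 3.20, and Folr2 was last at 0.414. In spinal cord, Pf4 led at 2.71 CPM per kb, followed by F13a1 at 2.16 and Mrc1 at 1.02, and Ms4a7 was last at 0.152. In DRG all neighbours in the order overlapped except Cd163 with Ms4a7 and Clec10a with Folr2, and in spinal cord all did except Folr2 with Clec10a and Clec10a with Ms4a7. Retnla in spinal cord averaged 0.583 CPM per kb and ranged from 0.156 to 1.34, across the ranges of Lyve1 and Cd163. With the longest transcript as the length, Pf4 and Retnla no longer overlapped in paw, Mrc1 and Folr2 did, and Folr2 and Retnla changed places in spinal cord.

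The makeup of the pooled reads of the 9 genes differed between tissues. F13a1 gave 35.2 ± 0.995% of them in paw, 27.7 ± 3.14% in DRG and 36.2 ± 7.44% in spinal cord (SD, n = 3 each). Mrc1 gave 17.7 ± 0.746% in paw, 26.4 ± 0.644% in DRG and 24.2 ± 4.53% in spinal cord. Folr2 gave 3.44 ± 0.186% in paw, 1.18 ± 0.378% in DRG and 3.33 ± 0.484% in spinal cord. Retnla gave 5.48 ± 1.69% in paw, 7.52 ± 0.548% in DRG and 1.30 ± 1.17% in spinal cord.

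**Figure D3:**
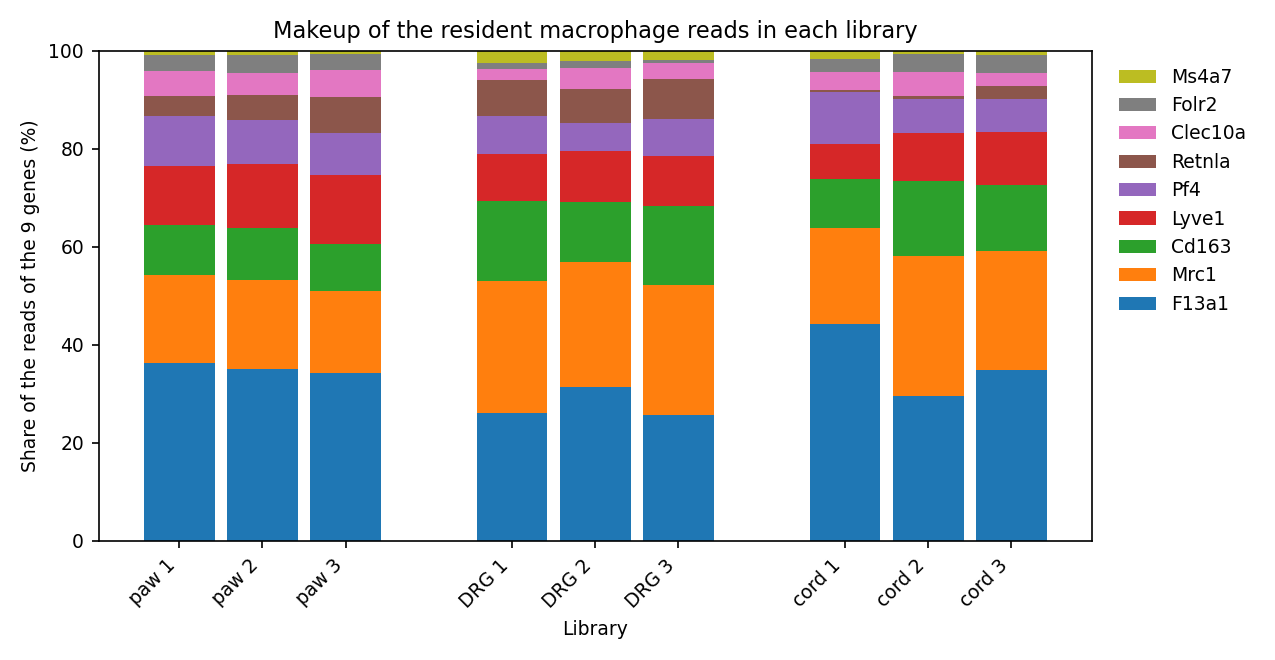
Share of the pooled reads of the 9 genes (y axis, percent) that each gene gave in each of the 9 libraries. The Folr2 band is thinnest in DRG, at 1.18% on average, and the Retnla band is thinnest in spinal cord, at 1.30%.

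Some ratios between the genes varied little between tissues and others varied widely. For every 100 Mrc1 reads there were 57.6 ± 0.716 Cd163 reads in paw, 56.1 ± 7.67 in DRG and 53.1 ± 1.78 in spinal cord (SD, n = 3 each), and each paw value lay above each spinal cord value. For every 100 F13a1 reads there were 26.2 ± 1.76 Pf4 reads in paw, 25.9 ± 6.75 in DRG and 22.2 ± 2.28 in spinal cord. In contrast, Folr2 reads per 100 Mrc1 reads were 19.5 ± 0.932 in paw, 4.50 ± 1.53 in DRG and 13.8 ± 1.08 in spinal cord, with no overlap between tissues. Lyve1 reads per 100 Mrc1 reads were 74.0 ± 8.81 in paw, 38.1 ± 2.61 in DRG and 38.3 ± 5.15 in spinal cord. Retnla reads per 100 Mrc1 reads were 31.3 ± 11.1 in paw, 28.5 ± 1.75 in DRG and 5.39 ± 4.74 in spinal cord.

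Each gene was also set against 15025 genes with a mean of at least 1 CPM. The measure was the root-mean-square difference between log2 profiles over the 9 libraries, each centred on its own mean. It is small where the ratio of a pair of genes is steady over the libraries, so it is no separate evidence for the pairs above. Mrc1 and Cd163 were each other's nearest gene, at 0.104. F13a1 and Pf4 were each other's nearest as well, at 0.223. The next for Mrc1 and Cd163 was A430107O13Rik, at 0.122 and 0.163. After Pf4, F13a1 was nearest to Klrb1b at 0.247 and Elf4 at 0.255, and after F13a1, Pf4 was nearest to Trip11 at 0.276 and Elf4 at 0.304. Clec10a was nearest to Il17rc at 0.169, Prickle3 at 0.174 and Mef2c at 0.196, and Lyve1 to Fbxo40 at 0.207, Il17rc at 0.257 and Prickle3 at 0.264. The nearest of Folr2 were Cdc42bpg at 0.215, Bmp4 at 0.228 and Gas1 at 0.24. Ms4a7 was nearest to Lbp at 0.252, and Retnla had no near neighbour, with H19 closest at 0.375. The points share their libraries and the likeness is a description only.

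Within DRG and spinal cord, single libraries stood apart for most of the genes. Summed over the 9 genes, DRG 1, 2 and 3 held 59.1, 37.5 and 43.8 CPM and spinal cord 1, 2 and 3 held 25.3, 14.2 and 30.4 CPM. DRG 1 held the highest level of 8 of the 9 genes among the DRG libraries, where 29.1% of all tested genes were highest, and Clec10a was the exception. Spinal cord 2 held the lowest level of all 9 among the spinal cord libraries. The share of all tested genes lowest in that library was not computed, while 40.6% of all tested genes were highest in it. Fibroblast genes followed a like order in these libraries: their sum was 3320, 2239 and 2257 CPM in DRG 1, 2 and 3, and 501, 397 and 1174 CPM in spinal cord 1, 2 and 3. Schwann cell genes were highest in spinal cord 3 too, at 7727, 7774 and 11485 CPM. Neutrophil genes were highest in spinal cord 1, at 843, 234 and 274 CPM, and muscle genes in DRG ran to 624, 959 and 35.4 CPM. The part of these differences in the levels of the 9 genes was not tested.

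The sum of general macrophage genes was lowest in DRG, unlike that of the resident genes. The 15 pan-macrophage genes summed to 595.6 ± 35.9 CPM in paw, 250.5 ± 24.1 CPM in DRG and 421 ± 68.5 in spinal cord (SD, n = 3 each). Of these, 12 were called higher and 1 lower in paw against DRG, where 39.7% of all tested genes were higher and 40.8% lower. In paw against spinal cord 7 were higher and 1 lower, where 39.9% of all tested genes were higher and 41.7% lower. In DRG against spinal cord 0 were called higher and 10 lower, where 29.0% of all tested genes were higher and 30.6% lower. The median log2 fold change of the 15 there was -0.78, beside 1.14 for the 9 resident genes. Without DRG 2, 2 of the 15 were higher in DRG, and 1 was without spinal cord 3. When each library was left out in turn, 0 to 2 of the 15 were lower in paw against spinal cord. Ctss, a lysosomal protease, averaged 74.9 ± 5.22 CPM in paw, 14.1 ± 1.38 CPM in DRG and 73.0 ± 3.87 in spinal cord.

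For every 100 CPM of pan-macrophage genes, the 9 resident genes had 44.7 to 51.9 CPM in paw, 14.9 to 21.6 CPM in DRG and 3.87 to 7.60 in spinal cord, with no overlap. The pan-macrophage sum was 498, 366 and 400 CPM in spinal cord 1, 2 and 3, highest where neutrophil genes were highest. Lyz2, the most expressed pan-macrophage gene, had a log2 difference of 1.32 for paw over spinal cord, and 1.95 without spinal cord 1. Any part of neutrophils in this ratio was not tested. The sum of the 12 microglia genes was highest in spinal cord. It was 158 to 178 CPM in paw, 169 to 188 CPM in DRG and 335 to 341 in spinal cord, and none of the 12 was at 0 reads in any tissue. Sall1, a microglial identity factor, averaged 1.87 ± 0.476 CPM in paw, 0.498 ± 0.229 CPM in DRG and 62.7 ± 12.2 in spinal cord (SD, n = 3 each). Cx3cr1, the fractalkine receptor of microglia and many tissue macrophages, averaged 1.44 ± 0.127 CPM in paw, 7.19 ± 1.94 CPM in DRG and 41.2 ± 3.12 in spinal cord. In DRG against spinal cord, 1 microglia gene was called higher and 10 lower, and in paw against spinal cord 1 higher and 9 lower. In paw against DRG, 6 were higher and 4 lower. Over all tested genes the higher and lower shares were 29.0% and 30.6%, 39.9% and 41.7%, and 39.7% and 40.8%, in that order.

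**Figure D4:**
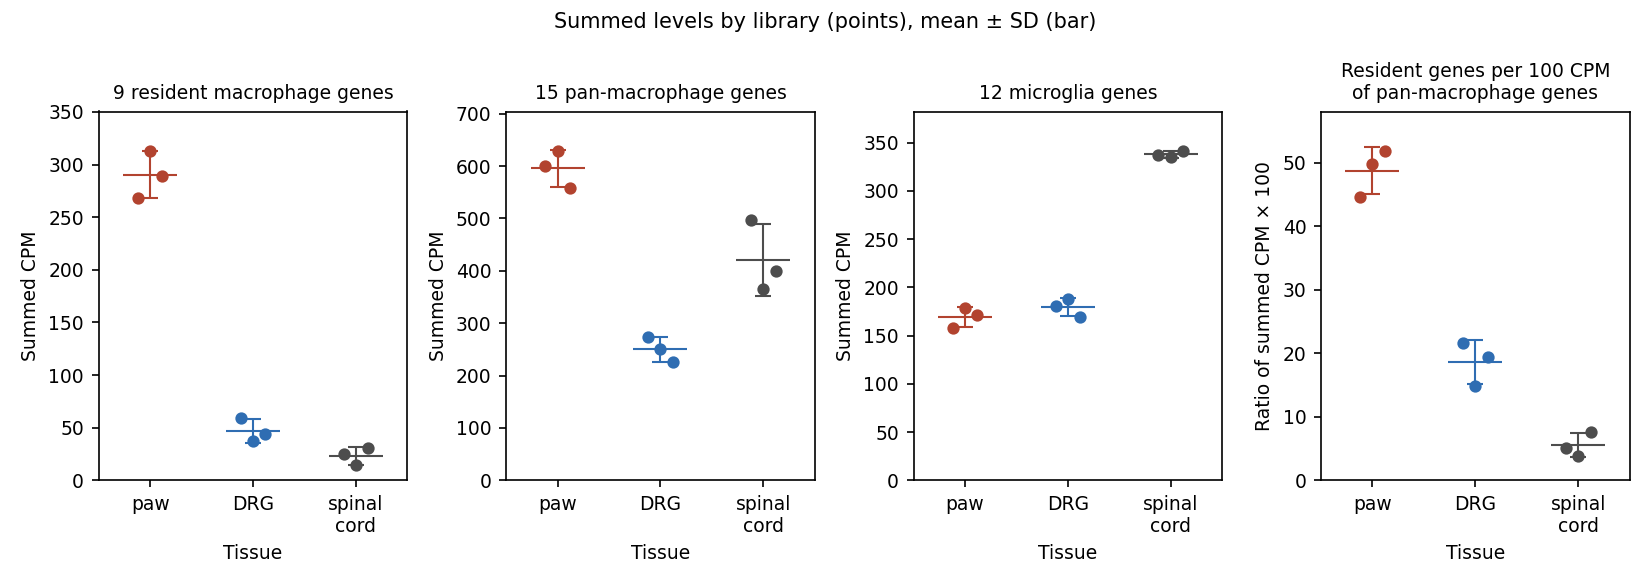
Summed CPM of the 9 resident macrophage genes, of 15 pan-macrophage genes and of 12 microglia genes, and the resident sum per 100 CPM of pan-macrophage genes, with a point per library and bars for mean ± SD. The resident genes run from paw through DRG to spinal cord, while the pan-macrophage sum is lowest in DRG, at 250.5 CPM on average.

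A further list of 24 tested genes of resident macrophages was read in the same fit. In paw against DRG 16 were called higher and 4 lower, where 39.7% of all tested genes were higher and 40.8% lower. In paw against spinal cord 19 were higher and 1 lower, where 39.9% of all tested genes were higher and 41.7% lower. In DRG against spinal cord 9 were higher and 2 lower, or 4 lower without DRG 1, where 29.0% of all tested genes were higher and 30.6% lower. The 25 genes of this list in the count files summed to 1557 ± 59.7 CPM in paw, 1631 ± 185 CPM in DRG and 1495 ± 128 in spinal cord (SD, n = 3 each). That sum did not fall from paw to DRG as the sum of the 9 genes did, but it was weighted to Sepp1, its most expressed gene, described below. The median log2 fold change of the 24 tested genes was 2.19 for paw against DRG. It was 1.90 for paw against spinal cord and 0.74 for DRG against spinal cord. Cbr2, a carbonyl reductase, averaged 25.3 ± 1.77 CPM in paw, 2.87 ± 1.19 CPM in DRG and 0.857 ± 0.146 in spinal cord (SD, n = 3 each). Its log2 differences were 3.13 ± 0.23 for paw over DRG (edgeR adjusted p = 1.53e-07), 4.86 ± 0.27 for paw over spinal cord (adjusted p = 1.08e-08) and 1.73 ± 0.30 for DRG over spinal cord (adjusted p = 0.000387). Sepp1, which encodes selenoprotein P, ran against the 9 genes with 379 ± 40.7 CPM in paw, 752 ± 87.6 CPM in DRG and 899 ± 57.0 in spinal cord. Maf was lower in paw against DRG (log2 -0.79, edgeR adjusted p = 0.0179) and higher in paw against spinal cord (0.66, adjusted p = 0.0386). Both Maf calls were lost when some single libraries were left out.

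Among 10 other scavenger and lectin receptors, 8 were called higher and 1 lower in paw against DRG, where 39.7% of all tested genes were higher. In paw against spinal cord 8 were higher and 0 lower, and in DRG against spinal cord 5 were higher and 0 lower, or 1 lower without spinal cord 2. Of all tested genes, 39.9% were higher and 41.7% lower in the first of these, and 29.0% higher and 30.6% lower in the second. Cd36, a fatty acid and scavenger receptor that adipocytes also carry, averaged 168 ± 17.4 CPM in paw, 8.92 ± 2.26 CPM in DRG and 2.55 ± 1.16 in spinal cord (SD, n = 3 each). Mrc2, a collagen receptor of the Mrc1 family, averaged 58.3 ± 7.38 CPM in paw, 28.5 ± 7.81 CPM in DRG and 14.6 ± 5.72 in spinal cord. Of 6 other Ms4a genes, 5 were higher and 1 lower in paw against DRG. Against spinal cord 5 were higher and 1 lower in paw, and 2 were higher and 0 lower in DRG. The lower gene in paw was Ms4a3, a gene of immature myeloid cells with 0 reads in paw, and its call against spinal cord was lost without paw 1, paw 2, paw 3, DRG 1 or DRG 2. Without spinal cord 2 the lower counts against spinal cord were 2 in paw and 1 in DRG. Those counts can include an Ms4a gene beyond the 6, because more genes passed the filter when a library was left out. Ms4a6d averaged 5.86 ± 0.593 CPM in paw, 0.910 ± 0.244 CPM in DRG and 0.996 ± 0.108 in spinal cord.

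The 9 hyaluronan genes set beside Lyve1 had 7 higher and 1 lower in paw against DRG, 7 higher and 0 lower in paw against spinal cord, and 3 higher and 2 lower in DRG against spinal cord. Over all tested genes the higher and lower shares were 39.7% and 40.8%, 39.9% and 41.7%, and 29.0% and 30.6%, in that order. The lower gene in paw against DRG, Tmem2, kept its call without DRG 2 and lost it when any other single library was left out. Hyal2, a hyaluronidase, averaged 32.9 ± 1.91 CPM in paw, 14.2 ± 2.52 CPM in DRG and 15.1 ± 0.809 in spinal cord (SD, n = 3 each). The 7 folate genes set beside Folr2 were split, with 4 higher and 2 lower in each paw comparison and 3 higher and 3 lower in DRG against spinal cord. The lower count in paw against spinal cord was 1 without paw 3 or spinal cord 3. Shmt1, an enzyme of folate metabolism, averaged 20.04 ± 4.30 CPM in paw, 0.332 ± 0.0948 CPM in DRG and 1.97 ± 0.173 in spinal cord. The 11 genes of haemoglobin and iron handling set beside Cd163 were also split, with 4 higher and 3 lower in paw against DRG, 4 and 4 in paw against spinal cord, and 3 and 5 in DRG against spinal cord. Lower calls in paw against spinal cord numbered 2 without paw 2, and lower calls in DRG against spinal cord numbered 3 without DRG 3 and 3 without spinal cord 2.

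Of the 8 transglutaminase and clotting genes set beside F13a1, 6 were higher and 1 lower in paw against DRG, 6 higher and 0 lower in paw against spinal cord, and 3 higher and 2 lower in DRG against spinal cord. The shares of all tested genes higher and lower were 39.7% and 40.8%, 39.9% and 41.7%, and 29.0% and 30.6%, in that order. The lower gene in paw against DRG, Fgg, fell under the filter on low counts when DRG 2 or DRG 3 was left out, and without DRG 3 the lower count in DRG against spinal cord was 1. F3, the tissue factor that starts clotting, averaged 248 ± 34.6 CPM in paw, 24.6 ± 0.401 CPM in DRG and 57.8 ± 10.6 in spinal cord (SD, n = 3 each). Thbd, an anticoagulant receptor, averaged 148 ± 28.2 CPM in paw, 54.4 ± 6.78 CPM in DRG and 28.0 ± 12.4 in spinal cord. The 6 genes of the resistin-like and type 2 response list set beside Retnla had 3 higher and 1 lower in paw against DRG, 5 higher and 1 lower in paw against spinal cord, and 4 higher and 1 lower in DRG against spinal cord. Il33, an alarm cytokine of that response, was the lower gene in each and averaged 12.6 ± 1.69 CPM in paw, 19.5 ± 5.60 CPM in DRG and 154 ± 18.3 in spinal cord. Without paw 1 or spinal cord 3, the lower count in paw against DRG was 2. Of 5 genes for chemokines related to Pf4 or for chemokine receptors, 3 were higher and 1 lower in paw against DRG. In paw against spinal cord 1 was higher, and in DRG against spinal cord 1 was higher. When each library was left out in turn, the higher count in paw against spinal cord was 2 to 4. That in DRG against spinal cord was 1 to 2, and without spinal cord 2 the higher count in paw against DRG was 5. Between 16243 and 16351 genes passed the filter with a library left out, so these counts can include genes of the list beyond the 5. The lower count was 2 in paw against DRG without DRG 2, and 1 in DRG against spinal cord without DRG 1, DRG 2 or spinal cord 2.

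Macrophage growth factors and their receptors were split between the tissues. Of 9 tested, 5 were higher and 3 lower in paw against DRG, 4 higher and 3 lower in paw against spinal cord, and 3 higher and 4 lower in DRG against spinal cord. Among all tested genes the higher and lower shares were 39.7% and 40.8%, 39.9% and 41.7%, and 29.0% and 30.6%, in that order. The higher count in paw against DRG was 3 without paw 3, DRG 2 or DRG 3, and the lower count in DRG against spinal cord was 2 without DRG 1, DRG 3 or spinal cord 1. Csf1, a main survival factor of macrophages, averaged 40.4 ± 8.08 CPM in paw, 31.0 ± 3.30 CPM in DRG and 63.0 ± 5.61 in spinal cord, and Il34, another ligand of the same receptor, averaged 39.6 ± 3.88 CPM in paw, 57.5 ± 4.59 CPM in DRG and 32.3 ± 7.92 in spinal cord (SD, n = 3 each).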

How the data were processed

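Each deposited file holds raw read counts of 1 library by gene symbol (22609 genes and 5 summary rows). Per the labels' protocols, poly(A) RNA was made into stranded libraries and read as 50-base single ends. The tools were HTSeq, TopHat2 and bcl2fastq on mm9, per the submitters' processing notes. Their versions, the gene models and the counting's strand setting were not given in the sources used here, so genes with an antisense partner (Folr2, F13a1) or a near copy (Clec10a) are uncertain. The summary rows, mostly reads aligned to several places, held 58.1 to 59.3% of each file in paw, 42.9 to 43.3% in DRG and 46.2 to 47.7% in spinal cord, and were left out. Floors cover counting error alone, because amplified reads lacking molecular identifiers are not independent.

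Groups are the tissues named in the titles. Replicates differed by more than sampling noise (chi-square per degree of freedom 7.55 to 38.4), and each was kept as its own replicate. Counts of all 9 libraries entered 1 edgeR 4.0.16 fit under R 4.3.3, with filterByExpr, TMM, glmQLFit (robust), 6 residual degrees of freedom and glmQLFTest, and Benjamini-Hochberg adjustment over 16091 genes at a threshold of 0.05. The standard error is the log2 fold change divided by the square root of F. Profiles for the nearest genes used log2 CPM with a prior count of 2. The fitting functions were tested on simulated data. Alternatives were DESeq2 1.42.0, limma-voom (limma 3.58.1), other size factors and filters, a replicate block, and libraries left out singly or in chosen pairs.

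The 9 genes and 25 further gene lists were chosen with earlier results of these data known. Of 273 list entries, 269 matched a symbol, 5 through an older one. The naming rule takes the 9 genes, the 3 most expressed members and the largest called change of each list, and the 3 nearest genes of each of the 9. Some genes it takes are not reported here. Others, among them Mgl2, Cbr2, Ppbp, Tubb1, Gp9, Cx3cr1, Mrc2, Ms4a6d, Hyal2, Thbd, Csf1 and Il34, were chosen after their values were seen or for their known roles.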

Additional observations from a re-analysis of the deposited data

How the results depend on the processing

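All 9 genes were called higher in paw against DRG and against spinal cord under each of 20 alternatives. Leaving out each library in turn gave 9 to 9 in both paw comparisons and 6 to 7 in DRG against spinal cord, and over all alternatives the last count ran from 4 (DRG 1 and DRG 2 left out) to 8 (spinal cord 1 and 3 left out), both from fits with 1 library in a tissue, assumed to vary like the others. The Ms4a7 difference between paw and DRG was the least secure of the paw differences, with an edgeR adjusted p of up to 0.0475 without DRG 3. Pf4 in DRG against spinal cord also passed with DESeq2 (0.83, adjusted p = 0.0277), after removal of DRG 2 and spinal cord 3 (1.15, adjusted p = 0.02) and with spinal cord 1 and 3 left out (1.80, adjusted p = 0.0109). Folr2 in DRG against spinal cord ran from -1.10 to 0.12 and passed under none. Of 540 values of the 9 genes under alternatives, 531 kept their side of the threshold. Changes of direction that passed in neither fit, as for Folr2 in DRG against spinal cord, are among the 531. Genes called over the whole table numbered 12467 to 13273, 12659 to 13304 and 8528 to 9803 in paw against DRG, paw against spinal cord and DRG against spinal cord when each library was left out. Among the most expressed and most changed genes of the other lists, 2 values reversed where either fit passed. Vwf in DRG against spinal cord was 0.36 with DRG 2 and spinal cord 3 left out, and Atp2a1 was -0.036 with DRG 1 and DRG 2 left out. The remaining list genes were not in that count. Of these, Ppbp in DRG against spinal cord went from -1.86 to 1.53 without spinal cord 1 (edgeR adjusted p = 0.0341). Pmp2 in paw against spinal cord went from -0.057 to 0.866 without spinal cord 3 (edgeR adjusted p = 0.000306). The cause was not tested. Upper quartile factors moved the median of all genes by 0.119 in paw against DRG. Deviations of same-numbered libraries correlated between -0.130 and 0.271, so the numbers were not taken to pair the samples, although the labels do not say whether they mark the same mice. With a replicate block, 12906, 13074 and 9500 genes were called in the 3 comparisons, and 9, 9 and 7 of the 9 genes, Pf4 being the added one (0.84, adjusted p = 0.0341).

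Depth limits the low levels most: Folr2 in DRG and spinal cord and Clec10a, Retnla and Ms4a7 in spinal cord rest on 2 to 19 reads per library. Those folds carry counting error beside the spread between libraries.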

Other observations

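Other myeloid cells were described by 3 lists. Of 12 genes of monocytes and recruited macrophages, 6 were higher and 4 lower in paw against DRG, 5 higher and 4 lower in paw against spinal cord, and 4 higher and 2 lower in DRG against spinal cord, by edgeR's quasi-likelihood test. The shares of all tested genes higher and lower were 39.7% and 40.8%, 39.9% and 41.7%, and 29.0% and 30.6%, in that order. The 12 genes summed to 482 to 528 CPM in paw, 406 to 554 CPM in DRG and 219 to 240.4 in spinal cord. Thbs1, a matrix protein of activated monocytes, platelets and many stromal cells, averaged 261 ± 24.3 CPM in paw, 28.8 ± 13.6 CPM in DRG and 9.92 ± 4.46 in spinal cord (SD, n = 3 each). The 8 neutrophil genes had 0 higher and 7 lower in paw against DRG, 0 higher and 8 lower in paw against spinal cord, and 0 called either way in DRG against spinal cord, or 1 lower without spinal cord 3. Of 9 dendritic and Langerhans cell genes, 5 were higher and 2 lower in paw against DRG, 7 higher and 1 lower in paw against spinal cord, and 6 higher and 1 lower in DRG against spinal cord, the last call being lost without DRG 1, DRG 3 or spinal cord 2. H2-Ab1, a class II histocompatibility gene, averaged 105 ± 8.24 CPM in paw, 49.7 ± 2.29 CPM in DRG and 14.3 ± 5.23 in spinal cord.

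Vessel and stromal lists differed in how many genes were called higher in paw, where 39.7% of all tested genes were against DRG and 39.9% against spinal cord. In DRG against spinal cord 29.0% of all tested genes were higher and 30.6% lower. All 8 adipocyte genes were higher in paw in both comparisons, and in DRG against spinal cord 6 were higher and 1 lower. Of 8 fibroblast genes, 4 were higher and 0 lower in paw against DRG, 8 were higher in paw against spinal cord, and 5 were higher and 2 lower in DRG against spinal cord, with 1 lower without DRG 2, DRG 3 or spinal cord 3. Of 8 blood endothelium genes, 6 were higher and 0 lower in paw against DRG, 6 higher and 1 lower in paw against spinal cord, and 1 higher and 3 lower in DRG against spinal cord, where the higher count was 0 to 2 without any 1 library. Pecam1 averaged 150 ± 8.65 CPM in paw, 31.0 ± 2.94 CPM in DRG and 45.5 ± 4.11 in spinal cord (SD, n = 3 each). Of 8 lymphatic genes tested, 4 were higher and 4 lower in paw against DRG, 3 and 3 in paw against spinal cord, and 3 and 3 in DRG against spinal cord. Of 5 platelet genes tested, 2 were higher and 1 lower in each comparison, and without spinal cord 1 or 2 the lower count in paw against DRG was 3 and 2. Without spinal cord 2 or 3 the lower count in paw against spinal cord was 2. Whether these genes and the resident genes differ through the same cells was not tested.

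The lists for tissue identity followed the labels. Of all tested genes, 39.7% were higher and 40.8% lower in paw against DRG. In paw against spinal cord 39.9% were higher and 41.7% lower, and in DRG against spinal cord 29.0% and 30.6%. All 7 keratinocyte genes were higher in paw in both comparisons, with 0 higher and 1 lower in DRG against spinal cord. All 8 sensory neuron genes were lower in paw against DRG and higher in DRG against spinal cord, and in paw against spinal cord 0 were higher and 5 lower, or 1 higher without spinal cord 3. All 8 Schwann cell genes were lower in paw against DRG, 4 were lower and 0 higher in paw against spinal cord, with 2 higher without spinal cord 3, and 7 were higher and 1 lower in DRG against spinal cord. Of 8 spinal cord neuron and glia genes, 2 were higher and 1 lower in paw against DRG, or 2 lower without paw 1 or DRG 3, and 7 were lower in paw and in DRG against spinal cord. All 8 muscle genes were higher in paw in both comparisons, and in DRG against spinal cord 7 were higher, or 4 without DRG 2, 4 without spinal cord 2 and 1 without spinal cord 3.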
